A study of Arabidopsis thaliana with 4 samples.

Results

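The cells described here are root tip cells of Arabidopsis thaliana that carry at least 4 of 7 transcripts: AGP31 (AT1G28290), sks15 (AT4G37160), AT5G62340, AT3G20360, AT3G04320, AT5G10130 and AT5G26260. A transcript counted as present when its deposited value was above 0. The rule was met by 1806 of 10529 cells, which are called the AGP31 and sks15 cells. The root tip of 7-day-old plants had been cut off 16 h before the roots were harvested. Wild type (WT) was set against the quadruple mutant lbd6 lbd36 lbd12 lbd15, called lbd_quad, a mutant in 4 genes for transcription regulators of the LATERAL ORGAN BOUNDARIES DOMAIN (LBD) family. Every plant of both genotypes had been cut, so the values hold no uncut control. The ecotype and the kind of lesion in each lbd allele are not given in the sources used here. Each genotype had 2 droplet libraries of protoplasts, which are cells freed from their walls by enzymes.

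Most of the 7 genes encode proteins that are secreted to the cell wall or act on it. AGP31 encodes an arabinogalactan protein with a proline-rich stretch, and AT5G10130 belongs to the related pollen Ole e 1 and extensin family. The wall of a growing root cell holds pectin whose methyl groups are removed by pectin methylesterases, and inhibitor proteins of the family to which AT5G62340 belongs hold these enzymes back. The product of sks15 is a SKU5-similar protein, resembling multicopper oxidases, and SKU5 itself is known for its part in directional root growth. AT3G04320 encodes a Kunitz-type protease inhibitor, and AT3G20360 and AT5G26260 encode TRAF-like proteins.

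WT replicate 1 held 1746 cells, WT replicate 2 held 5061, lbd_quad replicate 1 held 846 and lbd_quad replicate 2 held 2876. Depth was uneven: the median number of unique molecular identifiers (UMIs, single captured transcripts) per cell was 6364 in lbd_quad replicate 1 and between 2090 and 2522 in the other libraries. Across libraries, 9 cell barcodes were found in more than 1 library, on 18 cells. Of the targeted genes, LBD12 (listed as ASL5) was the most abundant, and it fell in the lbd_quad cells outside the chosen cells, with a log2 fold change of -2.62 and a limma adjusted p of 0.0312. Transcripts were read at their 3' end, and such an end can remain in a mutant allele, so these levels do not check the genotype of a library. Whether the 2 libraries of a genotype came from separate cultures is not given, so p-values measure the spread between these libraries, which may be technical.

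The AGP31 and sks15 cells made up a larger share of the WT libraries. They were 396 of 1746 cells in WT replicate 1, or 22.7% with an exact 95% interval of 20.7 to 24.7%. In WT replicate 2 they were 1116 of 5061 cells, or 22.1% (20.9 to 23.2%). In lbd_quad replicate 1 they were 83 of 846 cells, or 9.81% (7.89 to 12%). In lbd_quad replicate 2 they were 211 of 2876 cells, or 7.34% (6.41 to 8.35%). The WT mean was 22.4% ± 0.445 (SD, n = 2) and the lbd_quad mean was 8.57% ± 1.75 (SD, n = 2), and the groups did not overlap. The intervals cover counting error only. The rule rests on the measured values and these cells were picked for being more frequent in WT, so the shares are a description and were not tested.

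Depth did not run in the direction of the shares. The chosen cells had medians of 2389 and 3323 UMIs in WT replicates 1 and 2, and of 8380 and 6684 in lbd_quad replicates 1 and 2. A deeper cell has more chances to show 4 transcripts, and the lbd_quad cells that met the rule were the deeper ones. With every cell thinned to 1000 UMIs, 10.7% and 14.4% of the WT cells met the rule, against 1.77% and 2.36% of the lbd_quad cells. Thinning left out 1218 cells of WT replicate 2 and 632 of lbd_quad replicate 2 as too shallow, and 0 of the other libraries. Cells just inside the threshold, with exactly 4 of the 7 transcripts, were 11.7% of WT replicate 1 and 7.84% of WT replicate 2, while in lbd_quad they were 6.03% and 3.23%. Cells just outside it, with exactly 3, were 22.2% of WT replicate 1 and 11% of WT replicate 2, while in lbd_quad they were 11.7% and 6.08%. All 7 transcripts were found in 9 and 143 WT cells, and in 0 and 1 lbd_quad cells. The 0 of 846 cells of lbd_quad replicate 1 allow a share of up to 0.435% at the exact 95% level.

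**Figure D1:**
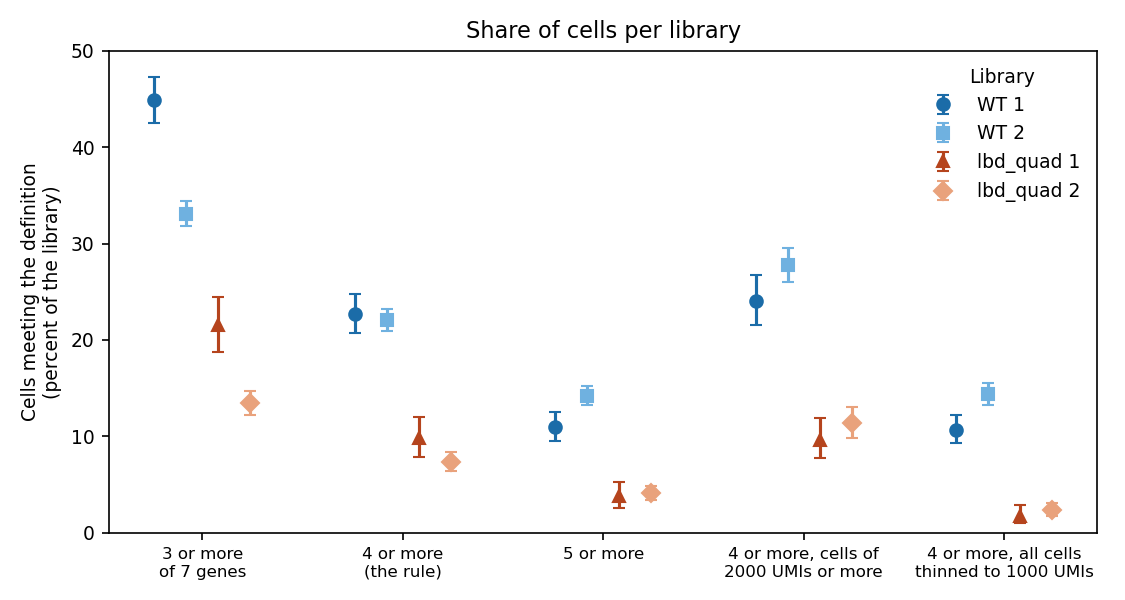
Percent of each library's cells that met the rule (vertical axis) under 5 definitions, with exact 95% intervals that cover counting error only. Both WT libraries lie above both lbd_quad libraries under each definition shown, for example 22.7% and 22.1% against 9.81% and 7.34% at 4 or more of the 7 genes.

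AGP31 and AT5G26260 were the most abundant of the 7 transcripts per cell, and both were found in at least 97.2% of the chosen cells of every library. Levels are means over cells of the UMIs per 10000 UMIs of the cell. AGP31 had a level of 44.2 and 83.9 in the chosen cells of WT replicates 1 and 2, and of 35.0 and 27.9 in those of lbd_quad replicates 1 and 2. In the other cells of the same libraries it was 5.68, 5.48, 4.87 and 3.26. The level of sks15 in the chosen cells was 3.31 and 6.93 for WT, against 4.03 and 3.15 for lbd_quad. It was found in 37.1% and 45.8% of the chosen cells of WT, and in 50.6% and 55.5% of those of lbd_quad. For sks15 the genotypes overlapped, whereas for AGP31 the lower WT library stood above both lbd_quad libraries.

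The other rule genes differed in how far the genotypes separated within the chosen cells. AT5G10130 had levels of 8.31 and 18.7 in WT and of 4.63 and 1.57 in lbd_quad. The Kunitz inhibitor gene AT3G04320 had levels of 12.9 and 21.1 in WT and of 7.42 and 6.21 in lbd_quad. The inhibitor gene AT5G62340 had levels of 7.63 and 13.6 in WT and of 3.73 and 6.52 in lbd_quad. In these 3 genes the genotypes did not overlap. AT3G20360 was the least abundant, at 0.683 and 2.13 in WT and 0.171 and 0.746 in lbd_quad, and its genotypes overlapped. These values chose the cells and were not tested.

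**Figure D2:**
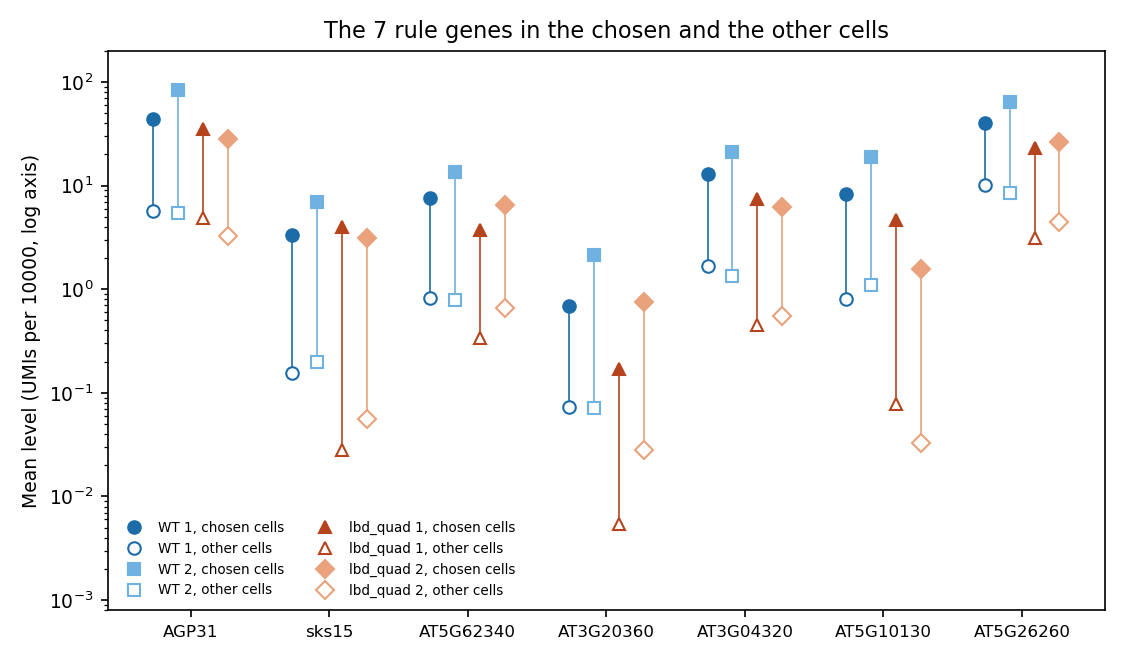
Mean level of each rule gene (UMIs per 10000, log axis) in the chosen cells (filled) and in the other cells (open) of each library, joined by a line. AGP31 ran from 27.9 to 83.9 in the chosen cells and from 3.26 to 5.68 in the other cells.

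A single transcript did not mark these cells, because AGP31 had a UMI in 57.3%, 43.7%, 54.8% and 30.1% of the cells that did not meet the rule (WT replicates 1 and 2, then lbd_quad replicates 1 and 2). Among cells with at least 3 of 10 endodermis markers, AGP31 had a UMI in 45.7% and 35.4% of the WT cells, at median depths of 7510 and 6247 UMIs. The corresponding shares were 15.6% and 13.8% in lbd_quad, at median depths of 7304 and 3700. The level of AGP31 in those endodermis-marked cells was 1.37 and 2.80 in WT, compared with 0.878 and 0.285 in lbd_quad. A UMI of sks15 was found in 6.52% and 2.36% of those WT cells and in 0.00% and 1.25% of the lbd_quad cells. The chosen cells were picked in part by sks15, so a higher share of them with its UMI follows from the rule.

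Similarity outside the 7 genes was measured by neighbours in the space of 30 principal components of 2000 variable genes, computed without the rule genes. Of the 15 nearest neighbours of a chosen cell, 49.4% and 68.2% on average were chosen cells for WT, and 52.4% and 60.7% for lbd_quad. For the other cells the values were 11.8% and 6.27% in WT and 8.27% and 5.90% in lbd_quad. Chosen cells were 17.2% of all cells. The chosen cells thus lay near each other in all 4 libraries, although a large part of their neighbours did not meet the rule.

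The markers of known root cell types gave the chosen cells no name. Over all 20365 genes, 0.879% were at least 2 times as high in the chosen cells as in the other cells of both WT libraries and 1.98% were at most 0.5 times as high. Of the 10 endodermis markers, 6 had at most 0.5 times the level of the other cells in both WT libraries, among them CASP1, which builds the Casparian strip, the barrier in the endodermal wall. CASP1 had levels of 0.0433 and 0.444 in the chosen cells of WT and of 1.11 and 1.85 in the other cells. The summed level of the 10 markers was 0.404 and 1.11 in the chosen WT cells against 4.73 and 4.67 in the others, and 0.0667 and 0.175 in lbd_quad against 10.3 and 7.53. Of the 4 cortex markers, 2 were at most 0.5 times as high in both WT libraries, as were 2 of 9 xylem markers. Of the 5 non-hair epidermis markers none was at least 2 times as high in both WT libraries, and the median ratio to the other cells was 1.07 and 1.38 in WT, compared with 1.71 and 1.72 in lbd_quad. Of the 10 root cap markers none was at least 2 times as high in both WT libraries.

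Among cells at their full depth, those carrying several non-hair or root cap markers met the rule more often than the rest of their library. Of cells with at least 3 non-hair epidermis markers, 54.3% and 63.9% met the rule in WT and 44.4% and 40.7% in lbd_quad. Those cells were deep, with medians from 6702 to 17104 UMIs. They made up 4.80% and 6.99% of the chosen WT cells and 9.64% and 15.6% of those of lbd_quad. Of the other cells they made up 1.19% and 1.12% in WT and 1.31% and 1.80% in lbd_quad. Of cells with at least 3 root cap markers, 37.6% and 39.2% met the rule in WT and 25% and 11.9% in lbd_quad, at median depths of 6574, 2313, 13430 and 3553 UMIs. With every cell thinned to 1000 UMIs, cells with at least 3 root cap markers were 4.81% and 3.62% of the chosen WT cells and 3.98% and 3.13% of the others. In lbd_quad they were then 0% of the chosen cells of both libraries, which were only 15 and 53 cells, and 2.29% and 1.32% of the others. Cells with at least 3 non-hair markers were 0% of the thinned chosen cells of all 4 libraries. Of the thinned other cells they were 0% and 0.0912% in WT and 0% and 0.0456% in lbd_quad. Thinned cells of either kind thus rarely showed 3 of these markers, so these values cannot compare the kinds. Of cells with at least 3 endodermis markers, no more than 8.66% met the rule in any library. No marker class made up more than 15.6% of the chosen cells of a library at full depth. The cells are named by their leading genes alone. In a mean over cells of a library, fewer cells of a kind and less RNA per cell cannot be told apart.

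Beside the rule genes, the chosen cells were led by AT1G54010, AT2G43610, AT1G52070 and BGLU22. Among 1419 genes with enough UMIs in the chosen WT cells, 79 were at least 2 times as high there as in the other cells in both WT libraries. The 25 with the highest ratios in the lower WT library were taken as leading genes. They hold 5 GDSL lipase-like genes, 2 chitinase family genes and 2 mannose-binding lectin genes; the others are of various kinds, such as the transporter gene ABCG1 and the cytochrome P450 gene CYP81F4. Because the cells were chosen from the same values, these ratios describe the cells and carry no test.

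AT1G54010, a GDSL lipase-like gene, had the highest ratio in each WT library. Its level in the chosen cells ran from 5.53 in lbd_quad replicate 2 to 9.25 in WT replicate 2, with 5.56 in WT replicate 1 and 5.61 in lbd_quad replicate 1. In the other cells it ran from 0.271 to 0.403. The ratio to the other cells was 12.8, 25.2, 12.8 and 11.2 (WT replicates 1 and 2, then lbd_quad replicates 1 and 2). AT2G43610, of the chitinase family whose members cut chitin, was far more abundant. In the chosen cells it reached 73.1 and 96.0 in WT, and 95 and 98.0 in lbd_quad, against 6.20 to 15.7 in the other cells. The genotypes overlapped in both genes.

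BGLU22 (AT1G66280), a beta-glucosidase gene, had levels of 43.4 and 53.9 in the chosen WT cells and of 33.3 and 26.5 in the chosen lbd_quad cells. GLL22 (AT1G54000), another GDSL lipase-like gene, had levels of 52.1 and 86.0 in WT and of 39.6 and 47.4 in lbd_quad. In both genes the WT libraries stood above the lbd_quad libraries, but neither was called (limma adjusted p = 0.318 and 0.492). NAI2 (AT3G15950), needed to form the endoplasmic reticulum bodies in which root beta-glucosidases are stored, had levels of 17.4 and 23.2 in WT and of 13.1 and 12.4 in lbd_quad. The lectin gene AT1G52070 had levels of 46.4 and 36.0 in WT and of 34.4 and 10.4 in lbd_quad. GPAT3 (AT4G01950), a glycerol-3-phosphate acyltransferase, had levels of 6.10 and 6.05 in WT and of 4.78 and 9.60 in lbd_quad, and its genotypes overlapped. UNE11 (AT4G00080), of the same inhibitor family as AT5G62340, had levels of 5.63 and 7.59 in WT and of 3.46 and 5.73 in lbd_quad.

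The ratios of the leading genes were computed in lbd_quad as well. Of the 25, 23 were at least 2 times as high as in the other cells in both lbd_quad libraries. The exceptions were CuAO1 (AT1G62810), a copper amine oxidase gene, with ratios of 1.79 and 2.88, and AGP30 (AT2G33790), an arabinogalactan protein gene related to AGP31, with ratios of 9.19 and 1.23. AGP30 had levels of 22.6 and 9.30 in the chosen WT cells and of 1.15 and 0.0370 in the chosen lbd_quad cells. It was found in 78.0% and 50.1% of the chosen WT cells, and in 16.9% and 2.37% of those of lbd_quad.

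Other members of the families of the rule genes were in part higher in the chosen cells as well. Of 10 SKU5-similar genes in the matrix, sks15 and also sks4 (AT4G22010), SKS6 (AT1G41830) and sks16 (AT2G23630) were at least 2 times as high in both WT libraries. The level of sks4 was 2.14 and 5.11 in WT, compared with 2.16 and 2.14 in lbd_quad, and sks5 (AT1G76160) was at most 0.5 times as high in both WT libraries. Of 8 TRAF-like genes, 4 were at least 2 times as high in both WT libraries. They were the rule genes AT3G20360 and AT5G26260, and also AT3G20370, at 6.92 and 13.4 in WT, and AT5G26280, at 17.8 and 24.3. Of 5 Kunitz inhibitor genes, 3 were at least 2 times as high in both WT libraries, the rule gene AT3G04320 among them. AT1G17860 reached 20.6 and 23.8 in WT and 33.1 and 32.0 in lbd_quad. The rule genes chose the cells, so their place in these counts follows from the rule. Genes of a family that share sequence can share reads, and how such reads were assigned is not given in the sources used here. LBD15 (AT2G40470), of the mutated genes, was 2.36, 2.48, 2.17 and 2.92 times as high as in the other cells of the 4 libraries, at levels of 0.157 to 0.330.

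Genes low in the chosen cells included water channels and wall genes of other cells. Among 837 genes with enough UMIs in the other cells, 83 were at most 0.5 times as high in the chosen cells of both WT libraries, and the 10 lowest of these were so in both lbd_quad libraries too. They include the subtilase gene SBT4.12 (AT5G59090), with ratios of 0.127 and 0.147 in WT, the pectin methylesterase gene PME3 (AT3G14310), with 0.202 and 0.146, and the xyloglucan enzyme gene XTH15 (AT4G14130), with 0.201 and 0.152. The aquaporin genes RD28 (AT2G37180) and PIP2A (AT3G53420) were among them. Of 35 expansin and xyloglucan hydrolase genes in the matrix, XTH5 and TCH4 were at least 2 times as high in both WT libraries and 5 were at most 0.5 times as high.

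**Figure D3:**
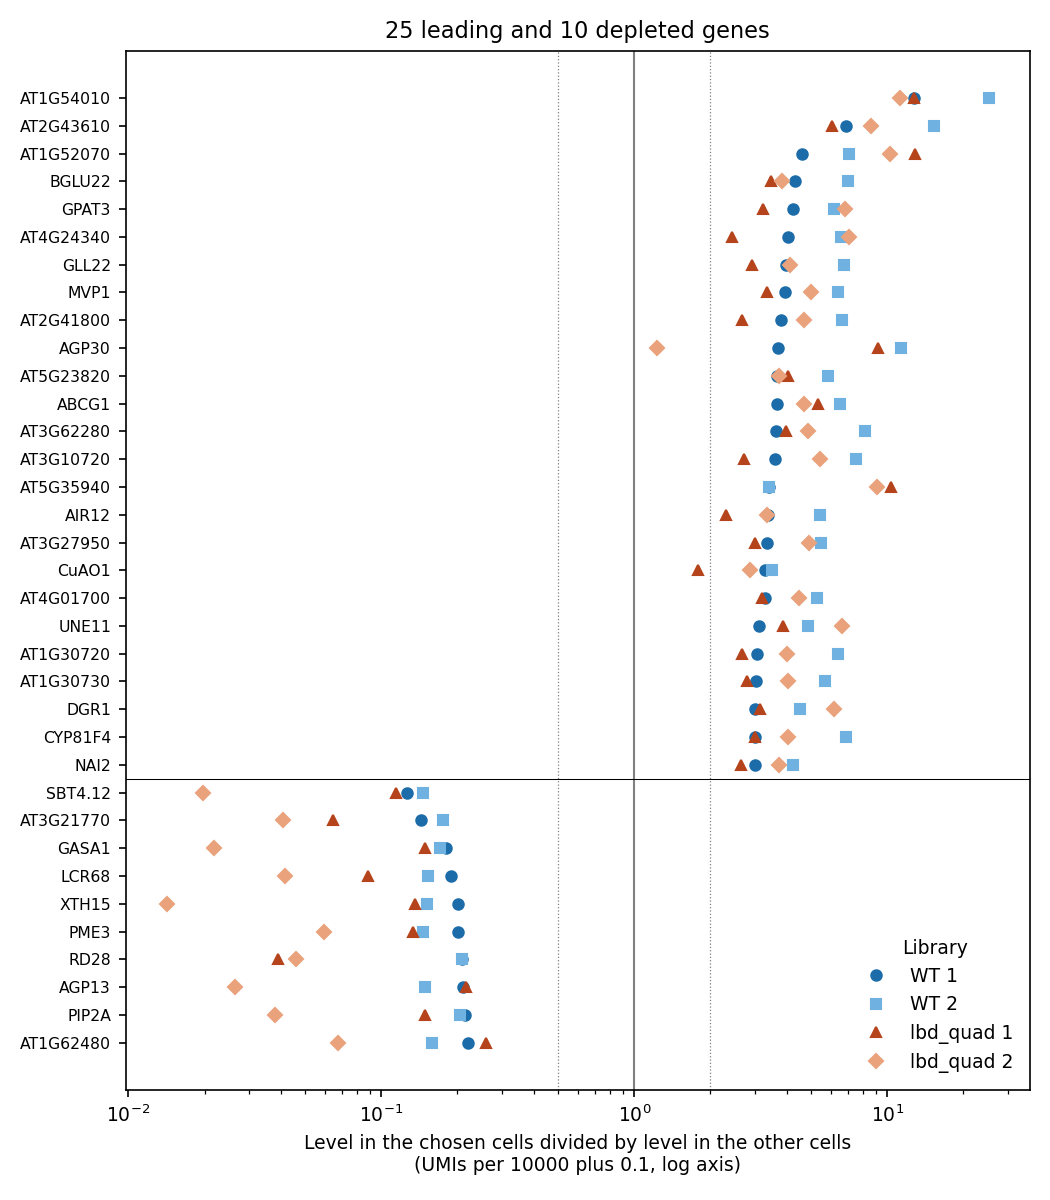
Ratio of the level in the chosen cells to that in the other cells of the same library (UMIs per 10000 plus 0.1, log axis) for the 25 leading genes (above the line) and the 10 depleted genes (below it). AGP30 in lbd_quad replicate 2, at 1.23, stands nearest to 1 among the leading genes.

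The following 5 genes had the pattern most like the number of rule genes per cell. Pearson's r was taken between the natural log of 1 plus a gene's thinned UMIs and the number of rule genes found. Genes found in under 5% of the thinned cells of either WT library were left out. The highest r was that of AT2G43610, at 0.66 over 1746 cells of WT replicate 1 and 0.80 over 3843 cells of WT replicate 2. BGLU22 followed with 0.60 and 0.73, GLL22 with 0.52 and 0.71, PGIP1 (AT5G06860), a polygalacturonase inhibitor gene, with 0.51 and 0.68, and BGLU21 (AT1G66270) with 0.49 and 0.60. Cells of a library share its preparation and free RNA, so r is a description.

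Cells that carried more of the 7 transcripts were set beside cells that just met the rule. AGP31 is itself 1 of the 7, and the 25 leading genes were picked for being high in WT cells that met the rule. A rise with the number of rule genes in WT is thus partly built in, and it was not tested. In WT replicate 1 the level of AGP31 was 20.2 in cells with 4 rule genes, 43.8 with 5 and 98.3 with 6, and in WT replicate 2 it was 29.1, 64.8 and 125. In lbd_quad replicate 1 it was 28.8, 26.7 and 71.4, over 51, 19 and 13 cells. In lbd_quad replicate 2 it was 30.1, 25.2 and 27.6. The summed level of the 25 leading genes was 197, 434 and 624 in WT replicate 1 and 228, 383 and 640 in WT replicate 2 with 4, 5 and 6 rule genes. It was 267, 285 and 520 in lbd_quad replicate 1 and 367, 346 and 389 in lbd_quad replicate 2. Among cells with 4 to 6 rule genes, levels were thus highest at 6 in both WT libraries and in lbd_quad replicate 1. They differed little in lbd_quad replicate 2. With all 7, the sum of the leading genes was higher still in WT, at 688 over 9 cells and 774 over 143 cells. The median depth with 4 and 6 rule genes was 6408 and 12030 UMIs in lbd_quad replicate 1 and 4429 and 11721 in lbd_quad replicate 2, against 2250 and 2856 in WT replicate 1 and 2826 and 2882 in WT replicate 2.

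Aquaporins ran the other way. The summed level of 17 plasma membrane and tonoplast aquaporin genes, which encode water channels, was 318 in WT replicate 1 cells with no rule gene, 115 with 4 and 37.0 with 6. In WT replicate 2 it was 190, 104 and 44.5. In lbd_quad replicate 1 it was 218, 26.2 and 9.58, and in lbd_quad replicate 2 it was 240, 37.2 and 17.9. All 4 libraries thus held less aquaporin transcript where more rule genes were found, and the lbd_quad libraries were lower than the WT libraries at 1 to 6 rule genes.

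**Figure D4:**
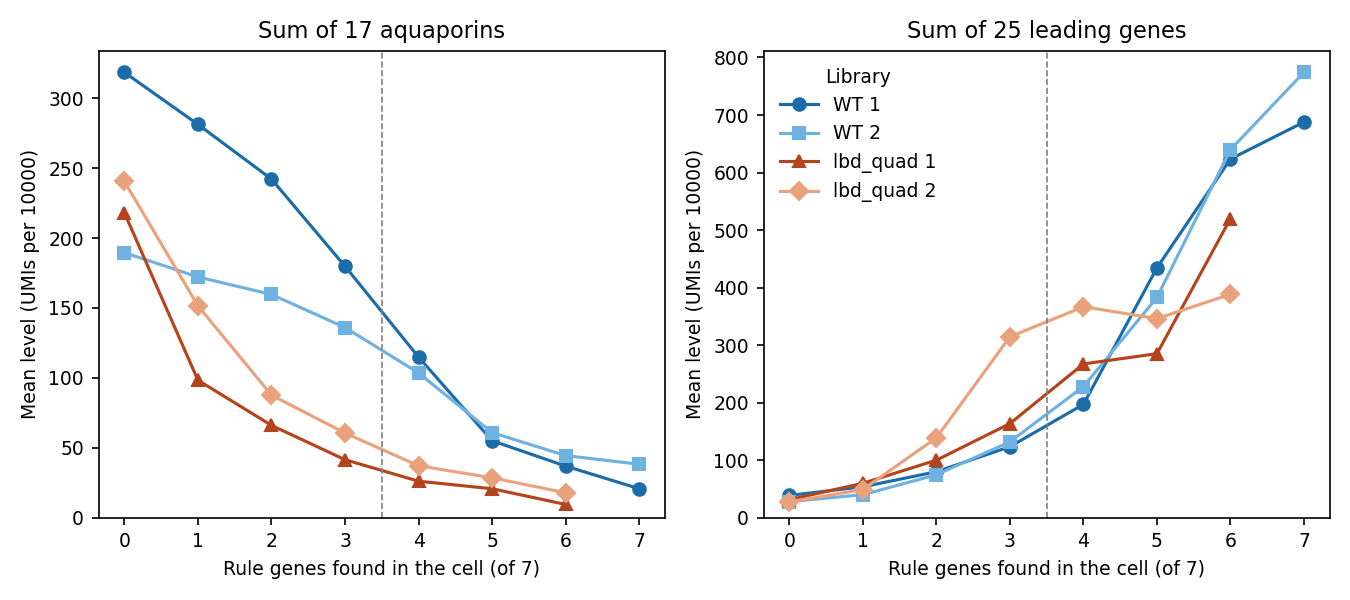
Summed mean level (UMIs per 10000) of 17 aquaporins (left) and of the 25 leading genes (right) by the number of rule genes found in a cell, for each library; the dashed line is the rule, and points with fewer than 9 cells are left out. Aquaporins were 115 and 104 in WT and 26.2 and 37.2 in lbd_quad at 4 rule genes.

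Within the chosen cells, WT and lbd_quad were compared by averaging the levels of each library over its chosen cells and testing all genes with limma, leaving the rule genes out of the counts. Of 8577 genes, 57 passed an adjusted p of 0.05, which is 0.665%: 8 rose in lbd_quad (0.0933%) and 49 fell (0.571%). Fold changes are on the scale of log2(level + 0.1) and understate the change of low genes; their median over all genes was -0.04. The falls held 7 aquaporins, of 14 tested. By product name, a grouping made after the calls were seen, they also held 6 peroxidases, 7 genes of the lipid-transfer and 2S albumin family and 3 proline-rich extensins, while 2 peroxidases and 1 gene of the lipid-transfer and 2S albumin family rose. Of 7 pectin methylesterases tested 1 fell, and of 15 expansin and xyloglucan hydrolase genes none was called by limma, with 8 at an unadjusted p under 0.05. Leaving out WT replicate 1 or 2 gave 16 or 46 calls, and leaving out lbd_quad replicate 1 or 2 gave 547 or 370. In all, 870 genes (10.1%) had an unadjusted p under 0.05.

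Of 14 aquaporin genes that could be tested, 7 fell. GAMMA-TIP (AT2G36830), a water channel of the vacuole membrane, had levels of 12.5 and 8.44 in the chosen cells of WT and of 0.916 and 0.830 in those of lbd_quad. The change was -3.41 ± 0.34 on the log2 scale (SE), with a limma adjusted p of 0.0105. PIP1A (AT3G61430), a plasma membrane water channel, had levels of 4.33 and 2.91 in WT and of 0.212 and 0.199 in lbd_quad, and changed by -3.58 ± 0.35 (log2, SE; limma adjusted p = 0.00954). PIP3 (AT4G35100) had levels of 10.4 and 8.95 in WT and of 2.33 and 1.39 in lbd_quad. PIP1C (AT1G01620) had levels of 10.6 and 7.17 against 2.05 and 1.74, and PIP2B (AT2G37170) had 2.99 and 2.47 against 0.332 and 0.417. RD28 had 0.635 and 0.444 against 0.00 and 0.0346, and PIP2;4 (AT5G60660) had 0.469 and 0.403 against 0.0462 and 0.0640. The genotypes did not overlap in any of the 7, as in all 49 genes called lower. The limma adjusted p of the latter 5 ran from 0.0217 to 0.0485. DELTA-TIP (AT3G16240), another channel of the vacuole membrane, had levels of 10.3 and 7.58 in WT and of 6.22 and 14.7 in lbd_quad, with overlap (limma adjusted p = 0.968).

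The genotypes were also compared in the cells outside the rule, where 39 of 9560 genes were called (0.408%, with 0.167% higher and 0.241% lower in lbd_quad). Of 15 aquaporins tested there none was called by limma, and 2 had an unadjusted p under 0.05, as did 8.09% of all genes. The median log2 fold change of the list was -2.07 within the chosen cells and -0.44 outside them. GAMMA-TIP had levels of 49.2 and 32.4 in the other WT cells and of 23.0 and 37.6 in the other lbd_quad cells, so its genotypes overlapped there. A test of the difference between the genotype effects called 24 of 9185 genes (0.261%), with 0.0218% of the tested genes higher and 0.24% lower within the chosen cells, and 8.86% had an unadjusted p under 0.05. The 24 genes held 4 aquaporins; 1 aquaporin was called with a pseudocount of 0.5, 11 without lbd_quad replicate 1 and 3 without lbd_quad replicate 2. The effect within the chosen cells was lower by 2.98 on the log2 scale for PIP1A, by 2.97 for GAMMA-TIP, by 2.30 for RD28 and by 2.04 for PIP2B, with limma adjusted p of 0.0071, 0.0071, 0.0071 and 0.0286. Without either WT replicate 1 or WT replicate 2 the difference test called 0 genes by limma, with 420 and 596 at an unadjusted p under 0.05, and without lbd_quad replicate 1 it called 186. PIP2B and RD28 are close relatives and may share reads.

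In the chosen cells of at least 5000 UMIs the summed aquaporin level was 58.5 and 68.4 in WT, compared with 18.0 and 21.9 in lbd_quad, at median depths of 8475, 8944, 10746 and 11562 UMIs. With that limit 5 of 14 aquaporins were called, beside 88 of 8499 genes tested. In cells with at least 3 rule genes after thinning to 1000 UMIs, 1 of 15 aquaporins was called, beside 23 of 8549 genes tested. None of the 7 named above was called there: PIP1A had a limma adjusted p of 0.0505, GAMMA-TIP of 0.0546 and the other 5 from 0.143 to 0.354. With no filter on low values, limma called 0 genes in all, the 17 aquaporins included, with 1841 genes at an unadjusted p under 0.05. Leaving out WT replicate 1 or 2 left 2 or 4 aquaporins called, and leaving out lbd_quad replicate 1 or 2 gave 11 or 10. With 5 or more rule genes required, 1 of 12 aquaporins was called, beside 18 of 8368 genes tested. With 3 or more, 1 of 15 was called, beside 49 of 8785 genes tested.

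The 8 largest falls were in peroxidase, wall protein, pectin lyase-like and lipid-transfer-like genes. RCI3 (AT1G05260), a class III peroxidase gene, had levels of 4.39 and 2.38 in the chosen WT cells and of 0.00571 and 0.0681 in those of lbd_quad. The change was -4.65 ± 0.41 on the log2 scale (SE), with a limma adjusted p of 0.0072. A minority of the chosen cells carried RCI3, with a UMI in 11.6% and 8.06% of those of WT. In lbd_quad it was found in 1.20% and 1.42% of them, from 1 and 5 UMIs. The extensin-like gene AT3G28550 had levels of 16.5 and 13.3 in WT and of 0.805 and 0.429 in lbd_quad, and AT1G23720, of the same family of structural wall proteins, had 6.53 and 4.75 against 0.203 and 0.241. They changed by -4.43 and -4.14 on the log2 scale, both with a limma adjusted p of 0.0072. AT2G43890, a pectin lyase-like gene, had levels of 2.06 and 2.31 in WT and of 0.0339 and 0.0290 in lbd_quad, which is -4.12 on the log2 scale. It had a UMI in 23.0% and 22.8% of the chosen WT cells, and its lbd_quad levels rest on 2 and 4 UMIs. AT3G28550 was found more widely, in 54.8% and 43.1% of the chosen WT cells.

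The rest of these 8 were AT4G12510, AT4G12520, AT4G11290 and AT5G17820. AT4G12510 and AT4G12520, neighbouring lipid-transfer-like genes that may share reads, had levels of 6.47 and 3.94 and of 7.45 and 5.22 in WT, against 0.205 and 0.300 and 0.227 and 0.580 in lbd_quad. The peroxidase gene AT4G11290 had 3.03 and 1.36 in WT against 0.0644 and 0.0582 in lbd_quad. The peroxidase gene AT5G17820 had 1.72 and 1.41 in WT against 0.00 and 0.0567 in lbd_quad. Their log2 fold changes ran from -3.88 to -3.73. In each of the 8 genes both WT libraries stood above both lbd_quad libraries, which was a condition of their choice.

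Most genes that fell were more abundant in other WT cells than in the chosen ones. Of the 49, 41 were lower in the chosen cells than in the other cells in both WT libraries, and 6 were higher in both. RCI3 had a level of 22.0 and 11 in the other WT cells and of 7.26 and 5.84 in the other lbd_quad cells. AT2G43890 was 1 of the 6 that were higher in the chosen WT cells, at 2.06 and 2.31 against 1.23 and 0.376. The median over the 49 genes of the level in the chosen cells was 41.5% of that in the other cells in WT and 5.53% in lbd_quad. All 49 had a value outside the rule, 46 of them with the same sign and 6 of them called there too. The depth of the chosen lbd_quad cells and the levels of these genes in surrounding cells thus moved with the result, and their part in it was not tested.

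Among the other falls, PME2 (AT1G53830), a pectin methylesterase gene, had levels of 2.85 and 1.60 in WT against 0.185 and 0.190 in lbd_quad. RNS3 (AT1G26820), a ribonuclease gene and the called gene among 7 root cap markers tested, had 2.81 and 2.23 against 0.249 and 0.0315. It was found in 8.08% and 2.96% of the chosen WT cells and in 1.20% and 0.948% of those of lbd_quad. The root cap markers moved with the falls as a list: 6 of the 7 had an unadjusted p under 0.05 by limma, beside 10.1% of all genes. Their median log2 fold change was -1.86, beside -2.07 for the aquaporins and -0.04 over all genes. Over the 10 root cap markers in the matrix, the summed level in the chosen cells was 31.3 and 22.9 for WT and 6.29 and 1.79 for lbd_quad, and outside the chosen cells it was 26.3 and 18.6 for WT and 9.92 and 4.39 for lbd_quad. The most abundant, the cysteine protease gene CEP2 (AT3G48340), had levels of 24.8 and 18.4 against 4.82 and 1.16 in the chosen cells (limma adjusted p = 0.0714), and SMB (AT1G79580), a root cap transcription factor gene, had 0.0786 and 0.0725 against 0.145 and 0.263. The part of root cap transcripts in the falls was not tested.

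The 8 genes that rose in the chosen lbd_quad cells were of several kinds, among them 2 peroxidase genes. GRP5 (AT3G20470), a glycine-rich wall protein gene, had 0 UMIs in the chosen cells of both WT libraries and levels of 0.935 and 4.33 in lbd_quad. These were 96 and 609 UMIs, found in 9.64% and 24.6% of the chosen lbd_quad cells. AT5G01870, a lipid-transfer-like gene, also had 0 UMIs in WT and levels of 1.16 and 0.898 in lbd_quad, from 73 and 185 UMIs. Those UMIs lay in 9.64% and 6.64% of the chosen lbd_quad cells. LTP2 (AT2G38530), a lipid transfer protein gene, had levels of 0.0954 and 0.132 in WT and of 1.55 and 1.99 in lbd_quad, and changed by 3.12 ± 0.32 (log2, SE; limma adjusted p = 0.0114).

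The other 5 rises had lower fold changes on the log2(level + 0.1) scale, which understates those of the least abundant genes. BHLH92 (AT5G43650), a transcription factor gene, had levels of 0.0867 and 0.0173 in WT and of 1.15 and 0.689 in lbd_quad. AT3G01830, a calcium-binding EF-hand gene, had 0.0834 and 0.0424 against 0.731 and 1.22. AT3G02840, an ARM repeat gene, had 0.615 and 0.285 against 2.61 and 2.97. The peroxidase genes AT1G14550 and AT5G64120 had 0.00 and 0.00513 and 0.0152 and 0.0253 in WT, against 0.308 and 0.813 and 0.397 and 0.492 in lbd_quad. Their log2 fold changes ran from 2.17 to 2.75, with limma adjusted p from 0.0217 to 0.0466. No gene's genotypes overlapped, which was a condition for naming them.

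GRP5 and LTP2 also rose in the cells outside the rule, by log2 fold changes of 3.88 and 2.51 with limma adjusted p of 0.00113 and 0.0465. In the other cells GRP5 had levels of 1.33 and 1.55 in lbd_quad, and LTP2 had 1.67 and 0.875. The difference test called AT5G01870 alone of the 8, by 2.18 on the log2 scale (limma adjusted p = 0.0071), and its level in the other lbd_quad cells was 0.185 and 0.113.

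**Figure D5:**
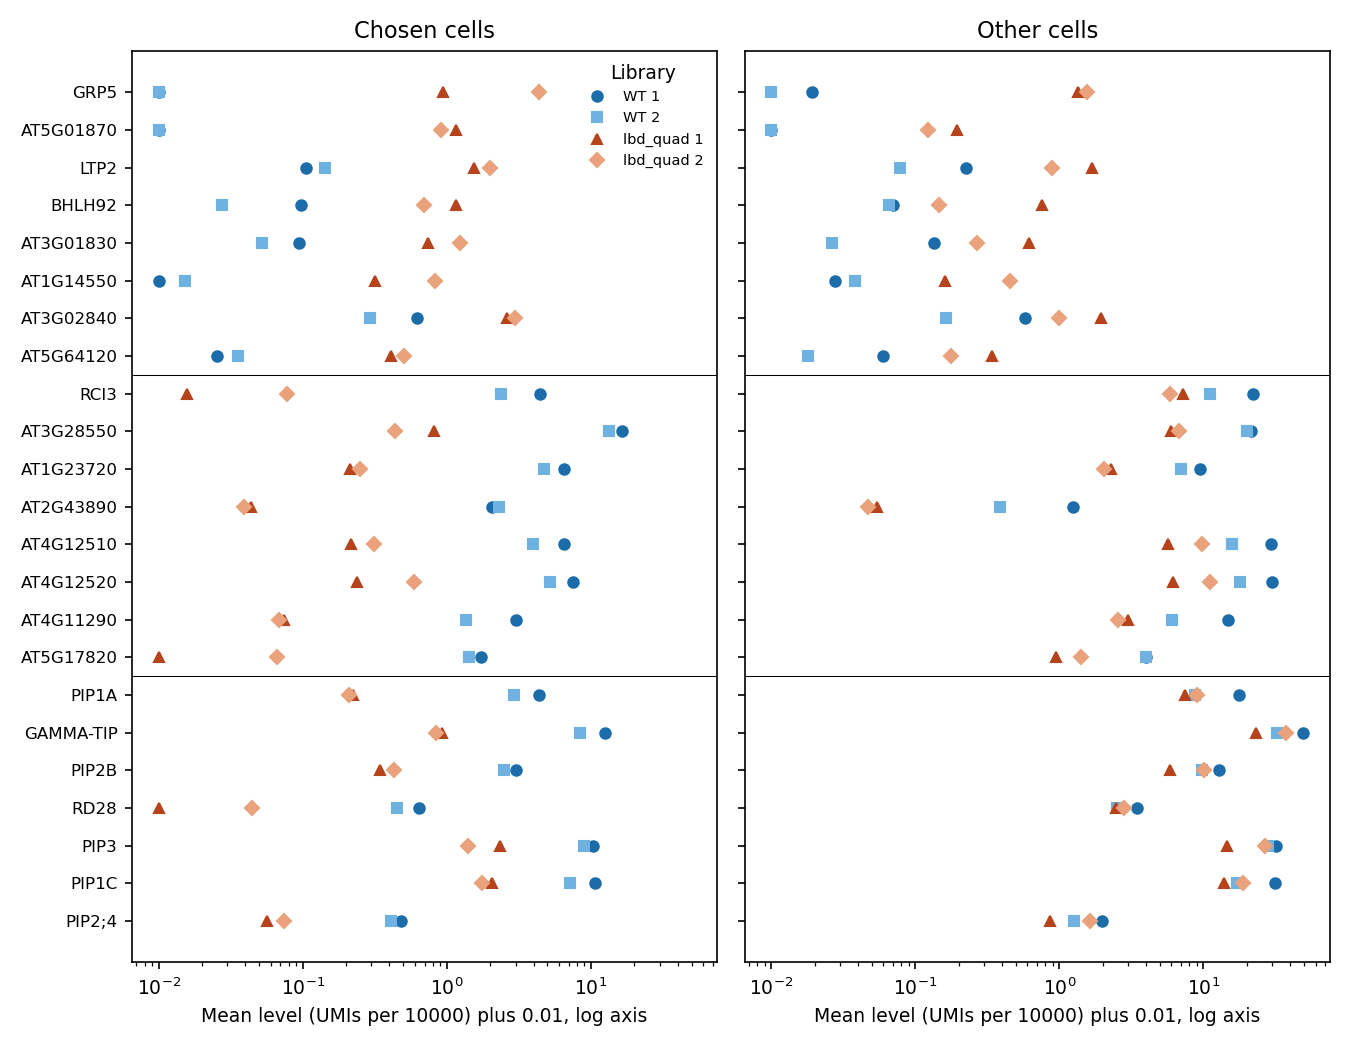
Mean level per library (UMIs per 10000 plus 0.01, log axis) in the chosen cells (left) and the other cells (right) for the 8 genes that rose, the 8 largest falls and the 7 aquaporins that fell in lbd_quad within the chosen cells. GAMMA-TIP was 12.5 and 8.44 in WT, compared with 0.916 and 0.830 in lbd_quad on the left, and its genotypes overlap on the right.

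Of the 25 leading genes none was called between the genotypes within the chosen cells by limma, and 3 had an unadjusted p under 0.05. Their median log2 fold change was -0.06, with a range from -5.14 for AGP30 (adjusted p = 0.0627) to 0.79. Over all cells of a library, 35 of 9502 genes were called (0.368%, with 0.137% higher and 0.232% lower). There 7.96% had an unadjusted p under 0.05. Over all cells AGP30 changed by -4.96 ± 0.61 on the log2 scale (SE; limma adjusted p = 0.0254) and was the called gene among the 25. The 25 were picked from WT values, in cells picked for being more frequent in WT. A fall of such a gene over all cells is thus partly built in, and this p is no independent support. LBD12 had levels of 3.56 and 2.07 in the chosen WT cells and of 1.63 and 0.144 in the chosen lbd_quad cells. The difference there was -2.12 ± 0.81 on the log2 scale (SE; limma adjusted p = 0.408), and lbd_quad replicate 1 stood nearer to WT than lbd_quad replicate 2.

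Cells that carry EXPA17, an expansin gene, and SULTR1;2, a sulfate transporter gene, were counted among the chosen cells as well. They numbered 362 and 410 in WT, against 23 and 45 in lbd_quad. Of these, 93 and 204 met the rule in WT, which is 25.7% and 49.8%, beside 22.7% and 22.1% of all cells of these libraries. In lbd_quad, 2 and 1 met it, which is 8.70% and 2.22%, beside 9.81% and 7.34%. The share stood well above that of the library in WT replicate 2, and the difference was not tested. EXPA17 had levels of 7.40 and 2.98 in the chosen WT cells and of 0.444 and 0.0186 in those of lbd_quad, with a limma adjusted p of 0.0535.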

How the data were processed

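Root tips were digested and run as 10x Genomics 3' v2 libraries, per the labels' protocols. Cell Ranger 7.0.1 and Seurat are named in the submitters' processing notes; the genome build, filters and doublet removal are not given in the sources used here. The authors deposited natural log values, the natural log of 1 plus UMIs per 10000 of each cell. All values came out as whole UMIs within 0.01, and the cells held 562 to 24898 UMIs; 3315 columns matched no sample and were not used. Library totals ran from 7073293 to 21280667 UMIs. No doublets were removed. All 20511 nuclear identifiers matched the names in TAIR10.1. The members and gene lists were chosen with earlier results of these data known.

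Levels were averaged over the cells of a library, genes with a mean under 0.1 were left out, and log2(level + 0.1) was tested with limma 3.58.1 in R 4.3.3 (mean-dependent prior, genotype the only term, Benjamini-Hochberg over all genes, threshold 0.05). The difference of effects had library as a random block (correlation 0.555). Both were also run on simulated data, in which genes varied independently. The chosen and the other cells of a library were drawn independently there too. Those runs thus cannot check the difference test at a correlation of 0.555. Ratios of chosen to other cells added 0.1 to both levels. Exact intervals are at 95%. Named genes are the 7 rule genes, 25 leading genes, 10 depleted genes, the 8 largest rises and falls called without overlap, called list members and mutated genes. Leading genes had a level of at least 1 in the chosen cells and UMIs in at least 25% of them in both WT libraries; depleted genes had a level of at least 2 in the other cells. Alternatives changed the pseudocount, filter, scaling, averaging, rule, depth and libraries. With 1 library left in a genotype, it was assumed to vary like the other genotype.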

Additional observations from a re-analysis of the deposited data

Results flagged for a closer look

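The genotype effect in the AGP31 and sks15 cells differed from that in the other cells for 12 of the named genes, by the limma interaction test with adjusted p from 0.0071 to 0.0385. Among aquaporins the difference on the log2 scale was -2.98 for PIP1A, -2.97 for GAMMA-TIP, -2.30 for RD28 and -2.04 for PIP2B. Among peroxidases it was -3.40 for RCI3 and -2.001 for AT5G17820. Among extensin-like genes it was -2.74 for AT3G28550 and -2.28 for AT1G23720. The lipid-transfer-like genes AT4G12510 and AT4G12520 had -2.36 and -2.26, and RNS3 had -2.67. AT5G01870 differed in the other direction, by 2.18.
Without WT replicate 1 or without WT replicate 2 the interaction test called 0 genes by limma, with 420 and 596 genes at an unadjusted p under 0.05.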

How the results depend on the processing

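Of the 57 genes called within the AGP31 and sks15 cells, 13 were called without WT replicate 1 and 31 without WT replicate 2. The calls there ranged from 16 to 547 when 1 library was left out, outside the cells (39 calls) from 115 to 173, over all cells (35) from 160 to 248, and for the difference (24) from 0 to 186, with its correlation kept fixed. With no filter the 4 limma fits called 0, 2, 0 and 0 genes, with 1841, 1548 and 1663 genes at an unadjusted p under 0.05 in those at 0; these fits test more low genes. Within the cells, 5 or more rule genes gave 18 calls, and, chosen after seeing the data, thinned cells with 3 or more gave 23 and cells of at least 5000 UMIs 88. A pseudocount of 0.5 gave 25 calls outside the cells and 12 for the difference, size factors gave 22 outside and 19 over all cells, and sums over cells gave 1 in each of these. With the replicate number as a block, the calls were 509 within the cells, 273 outside, 467 over all cells and 13 for the difference, with 3 aquaporins among the last. Deviations of same-numbered libraries correlated at 0.416 to 0.514, but 2 pairs of numbers do not establish a pairing. The share in lbd_quad minus that in WT was -13.8 percentage points, and -21.5 with 3 or more rule genes, -8.63 with 5 or more and -10.5 after thinning. Of 373 repeats over the 25 genes called and named within the cells, 262 kept the call, 111 lost it and 0 changed sign. These genes were picked as called, and their libraries did not overlap between the genotypes. Leaving out a library, changing the pseudocount or filter, or adding the block could thus not reverse a sign. Apart from the settings whose construction changes the genes or libraries, the cause was not tested. Of the 25 leading genes, 19 to 21 were again among the leading 25 under the other rules and depths. Depth limits low genes most, since the smallest sample held 83 chosen cells.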

Other observations

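Genes of other lists were compared between the genotypes within the AGP31 and sks15 cells. Of 13 jasmonate and wounding genes tested none was called by limma, and 3 had an unadjusted p under 0.05, beside 10.1% of all genes. Their log2 fold changes were positive in 12 of 13, beside 46.8% of all genes. Their median was 0.84, while the median over all genes was -0.04. RRTF1, a redox-responsive transcription factor gene, had levels of 1.53 and 0.948 UMIs per 10000 in WT and of 4.26 and 2.63 in lbd_quad. LOX3, a lipoxygenase gene of jasmonate synthesis, had a difference of 2.13 ± 0.36 on the log2 scale (SE), short of the threshold with a limma adjusted p of 0.0516. Outside these cells the median of the list was 0.58. Of 8 auxin response genes tested none was called by limma and 0 had an unadjusted p under 0.05, with a median log2 fold change of 0.01, and of 4 callose and plasmodesmata genes the counts were likewise 0 and 0, with a median of -0.24. Of 5 non-hair epidermis markers none was called by limma and 0 had an unadjusted p under 0.05.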
